A study of Mus musculus with 2 samples.

Results

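Alveolar macrophages are described here from 2 single-cell libraries of mouse lung, as the cells that a rule on marker counts selected. Of 8451 cells that detected 200 genes or more and held no more than 15% mitochondrial transcripts, 1070 were chosen by the rule, 446 of 4526 in the library of bleomycin (BLM)-injured lung and 624 of 3925 in the library of naïve lung. A chosen cell held 3000 or more unique molecular identifiers (UMIs, 1 per captured transcript), and the sum of 7 alveolar macrophage genes (Plet1, Car4, Atp6v0d2, Marco, Ear1, Krt79 and Siglecf, called A below) made up 0.1% or more of them. A also had to exceed the sum of C1qa, C1qb, C1qc and Ms4a7 (called C below), which mark the other large group of lung macrophages, and the proliferation genes Mki67, Top2a, Birc5 and Ube2c together had to stay under 4 UMIs. The levels of these genes therefore chose the members and are given as a description.

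Alveolar macrophages live in the air spaces of the lung, where they take up and break down surfactant, inhaled particles and dying cells. Their identity depends on the cytokine GM-CSF from the alveolar epithelium and on the lipid-sensing transcription factor PPARγ, and it includes a broad programme of lipid handling. After lung injury the resident cells can be joined by macrophages that arise from blood monocytes and take on part of the same programme, while expressing genes of matrix turnover and repair.

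The BLM library came from wild-type C57BL/6N mice that were 10 to 16 weeks old and received 50 µg of bleomycin into the trachea. Bleomycin is a drug that breaks DNA and is used to cause lung inflammation and fibrosis, and the lungs were taken on day 15. The naïve library came from untreated wild-type mice of the same strain. The paper mentions matching for age and sex only in its bleomycin method, and the age of these naïve mice is not given. In both groups living CD45+ leukocytes were sorted from enzymatically digested lung, and cells of 3 mice were pooled in equal numbers into 1 library per group, within which the mouse of a cell is not identified here. Mouse, library and treatment therefore cannot be told apart, no test between groups was possible, and all intervals cover counting error only.

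The chosen cells held 5776704 UMIs in the BLM library (median 12263.5 per cell, from 3143 to 42334) and 6575153 UMIs in the naïve library (median 10062.5, from 3085 to 27788). They detected a median of 3351.5 and 3256.5 genes, and the median share of mitochondrial UMIs was 6.12% and 6.39%. There were 22 cell indices listed in both libraries, of which 0 were chosen in both and 4 were chosen in either. A further 101 BLM and 116 naïve cells met the rule except for holding under 3000 UMIs, and 79 BLM and 41 naïve cells met it except for the proliferation genes. Because genes of the rule differed between the libraries, the numbers of chosen cells are not compared.

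More of the BLM cells than of the naïve cells lay close to the threshold. A made up a median of 0.659% of UMIs per naïve cell and 0.415% per BLM cell. Between 0.1 and 0.15% there were 38 BLM cells and 4 naïve cells, and just outside, from 0.05 up to 0.1%, there were 45 and 100 cells. The nearest members held 0.1%, 0.102% and 0.102% of their UMIs in A in the BLM library, and the nearest cells left out held 0.0986%, 0.0978% and 0.0968%. In the naïve library the nearest members held 0.1002%, 0.105% and 0.121%, and the nearest cells left out 0.0996%, 0.0953% and 0.0941%.

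**Figure D1:**
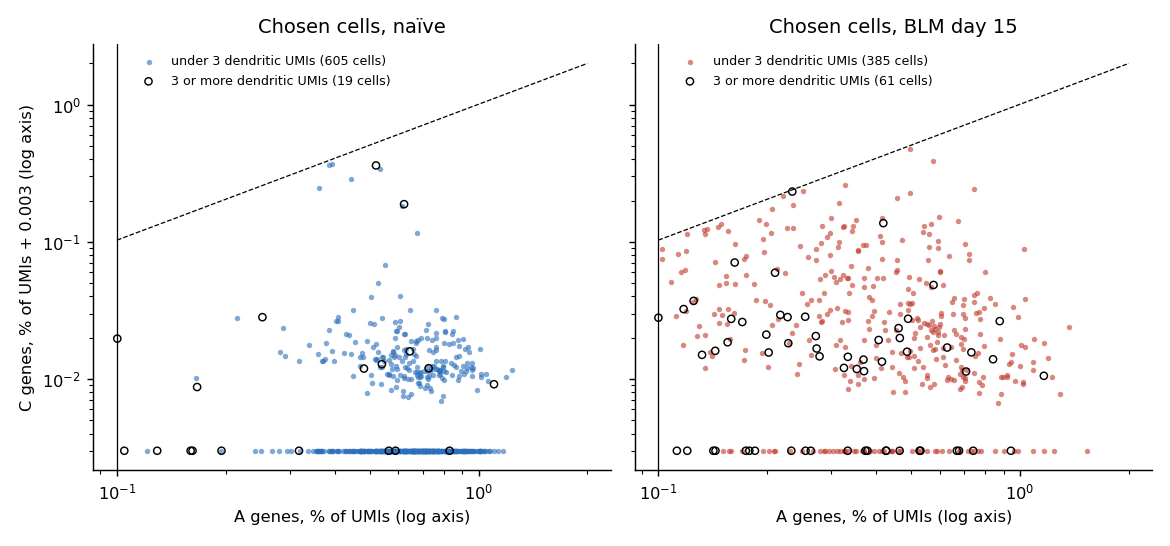
Each point is 1 chosen cell, with the summed A genes on the x axis and the summed C genes on the y axis, both as a percent of the cell's UMIs on log axes (0.003 added to C). The vertical line is the threshold of 0.1%, the dashed line is where A equals C, and open circles are the 61 BLM and 19 naïve cells with 3 or more UMIs of dendritic cell genes.

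Markers outside the rule were used to check the name of the cells. Chil3, a chitinase-like protein that alveolar macrophages make in large amounts, was at 10210.3 CPM (UMIs per 1000000 UMIs of the chosen cells) in BLM and 11042 CPM in naïve cells and had a UMI in 95.1% and 99.7% of them. In cells thinned to 1000 UMIs that share was 84% of BLM and 98.5% of naïve alveolar macrophages and 15.3% and 27% of B cells, which should lack the gene and so measure free RNA (unthinned, 29.7% and 50.5% of B cells). Lpl, which encodes lipoprotein lipase, was at 3313 and 3319 CPM. Itgax, which encodes CD11c, was at 861 CPM in BLM and 738 CPM in naïve cells, a log2 ratio of BLM over naïve of 0.22 [0.16, 0.28] (95% intervals in brackets throughout). Not all resident genes outside the rule were level. Of 20 such genes, those just given included, 7 were 2-fold or more lower in BLM cells and 0 higher, beside 8.19% and 5.13% of all genes. Fabp1, Krt19 and Cidec, described below, were among those lower. Chil3 made up under 0.1% of UMIs in 84 of the 446 BLM cells and 11 of the 624 naïve cells, so that the name fitted most cells of both libraries by this marker and a smaller part of the BLM cells.

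Most of those 84 BLM cells carried markers of dendritic cells (55), whereas 29 did not. In the BLM library 61 of the 446 cells (13.7%, exact 95% interval 10.6 to 17.2%) held 3 or more UMIs over 8 dendritic genes (Xcr1, Clec9a, Flt3, Cd209a, Ccr7, Fscn1, Siglech and Zbtb46), and 19 of the 624 naïve cells did (3.04%, 1.84 to 4.71%). In the 61 BLM cells Plet1 supplied 93.2% of the A UMIs, against 43.5% in the other 385 cells, and only 4 of the 61 would have been chosen by the other 6 genes of A, against 323 of the 385. Their Chil3 level was 2651 CPM, and Cd74, the invariant chain of MHC class II, was at 11952 CPM. These cells are kept in the values below because the rule keeps them, and values without them (385 BLM cells with 5192018 UMIs and 605 naïve cells with 6316354 UMIs) are given where they end a call or differ by more than 1.5 times.

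The genes of the rule did not differ as one. Plet1, a surface protein linked by a lipid anchor, was at 2339 CPM in BLM and 2524 CPM in naïve cells, a log2 ratio of −0.11 [−0.14, −0.08], and Car4, a membrane-bound carbonic anhydrase, was at 903 and 724 CPM. Atp6v0d2, a subunit of the proton pump of acidic vesicles, was at 1326 and 1648 CPM, and the scavenger receptor gene Marco at 225 and 333 CPM. Krt79, a keratin, was at 10.7 CPM in BLM and 476 CPM in naïve cells, Ear1, a secreted ribonuclease, at 59.4 and 679 CPM, and Siglecf, a sialic acid-binding receptor, at 86 and 327 CPM. The last 3 were thus lower in BLM cells by log2 ratios of −5.47, −3.52 and −1.93, and choosing the cells without the gene in question gave −5.47, −3.52 and −1.97. Among the C genes, C1qb was at 199.8 CPM in BLM cells and 28 CPM in naïve cells, C1qa at 66.8 and 19.9 CPM, C1qc at 101 and 31.3 CPM, and Ms4a7 at 30.5 and 22.7 CPM.

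Over all genes, 9441 had 50 or more UMIs in both libraries together. A gene is called higher or lower when its level differed by 2-fold or more, and by this rule 484 genes (5.13%) were higher and 773 genes (8.19%) were lower in BLM alveolar macrophages. These shares are the background for the counts of list members below. The median log2 ratio of the 9441 genes was −0.20, so a ratio of 0 lies slightly above the typical gene, and setting that median to 0 turned the split to 621 higher and 519 lower. Without the cells with dendritic markers 418 of 9257 genes (4.52%) were higher and 789 (8.52%) lower, of which 383 and 688 were among those called with them. The most abundant genes were largely shared. Lyz2 (lysozyme), Fth1 (ferritin heavy chain), Tmsb4x, mt-Co1, Actb, Chil3, mt-Co2 and mt-Atp6 were among the 10 highest in both libraries, Psap and Ctss were so in BLM cells only, and Ccl6 and mt-Nd4 in naïve cells only.

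**Figure D2:**
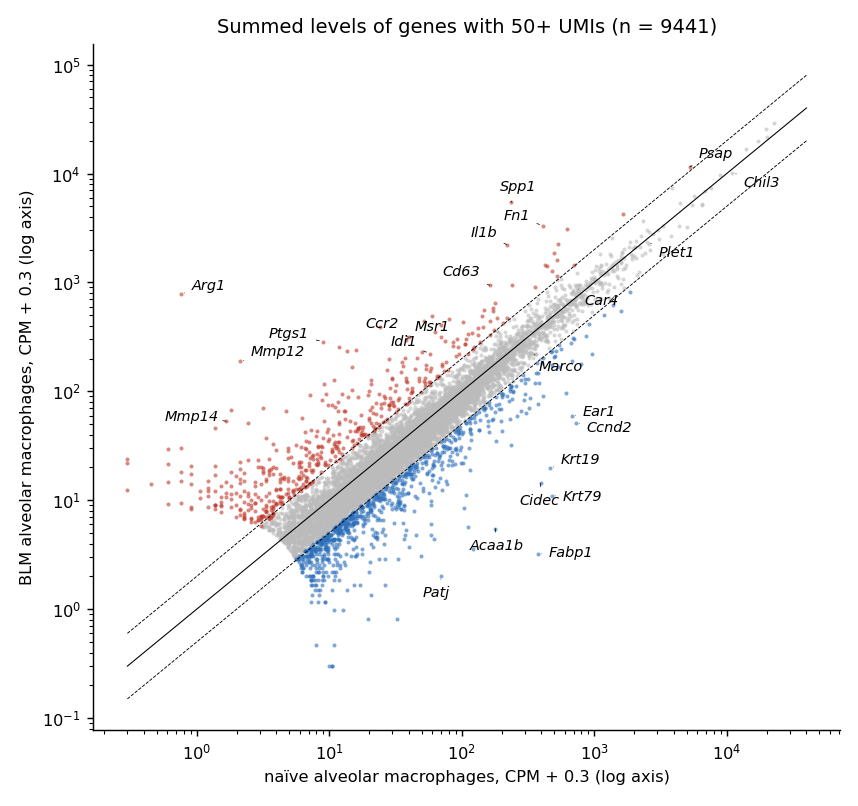
Each point is 1 of 9441 genes, with its summed level in naïve cells on the x axis and in BLM cells on the y axis (CPM + 0.3, log axes). The solid line is equality and the dashed lines are 2-fold, red genes were 2-fold or more higher in BLM (484) and blue genes lower (773).

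Genes of the resident programme were among the lowest in BLM cells. Of 28 listed genes of resident identity 27 had 50 or more UMIs, and 0 were higher and 10 lower in BLM cells, beside 5.13% and 8.19% of all genes. Their median log2 ratio was −0.69 beside −0.20 for all genes, and 3 of the 10 (Krt79, Ear1 and Siglecf) belong to the rule. The list holds all 7 genes of A, so the count and the median rest in part on genes that chose the cells. Of the 20 genes outside the rule 0 were higher and 7 lower. Fabp1, a fatty acid-binding protein encoded on chromosome 6 (71199827 to 71205023, GRCm38), counted 17 UMIs in BLM cells and 2455 in naïve cells, which is 2.94 and 373 CPM and a log2 ratio of −6.99 [−7.77, −6.31], the lowest of all named genes with a UMI in both libraries. The keratin gene Krt19 was at 19.6 and 464 CPM, a log2 ratio of −4.57 [−4.85, −4.30]. Cidec, which enlarges lipid droplets, was at 14 and 394 CPM, a log2 ratio of −4.81 [−5.15, −4.49]. Cd2, Serpinb1a (a protease inhibitor), Abcg1 (a cholesterol exporter) and Perp followed with log2 ratios between −2.88 and −1.10, of which Perp did not pass 2-fold without the cells with dendritic markers (−0.99 [−1.13, −0.86]). The other 17 genes stayed within 2-fold, among them Chil3, Lpl, Plet1, Car4, Olr1 and Pparg itself, the gene for PPARγ, at 106 CPM in BLM cells and 199 CPM in naïve cells.

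These lower levels were spread over nearly all BLM cells. A UMI of Fabp1 was present in 78.4% of naïve cells and 2.02% of BLM cells, and after thinning every cell to 3000 UMIs these shares were 52.1% and 0.704%. For Krt79 the thinned shares were 63.1% and 1.85%. B cells, which should lack both genes, served as a measure of free RNA, and thinned to 1000 UMIs they held Fabp1 in 0.314% (naïve) and 0% (BLM) of cells, against 26.7% and 0.248% of alveolar macrophages thinned alike. The median depth of the B cells was 2012 UMIs in the naïve and 1763 UMIs in the BLM library, and 10 and 21 of them were too shallow to thin.

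The 12 genes that stood lowest by the interval end nearer 0 were Fabp1, Krt79, Cidec and Krt19, described above, and 8 others. Acaa1b, a thiolase of peroxisomal fatty acid breakdown, was at 5.19 CPM in BLM and 179 CPM in naïve cells, and Acot1, an acyl-CoA thioesterase, at 5.37 and 112 CPM. Ccnd2, which encodes the cell cycle regulator cyclin D2, was at 50.7 and 729 CPM, a log2 ratio of −3.84 [−4.02, −3.67]. Cpne5, Patj, Coro6 and Spag11b had log2 ratios of −5.20, −5.33, −4.14 and −5.21 [−7.50, −3.63], the last with 3 BLM UMIs. The immunoglobulin gene Ighg2c had 0 UMIs in BLM cells and 64 in naïve cells, at least 18.7-fold lower against a floor of 3 counts over the group, and in naïve B cells it was at 7.2 CPM beside 9.73 CPM in naïve alveolar macrophages.

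By the interval end nearer 0 of the ratio, the gene that stood highest in BLM over naïve alveolar macrophages was Arg1. It encodes arginase 1, which turns arginine into ornithine and is a classical gene of alternatively activated macrophages (chromosome 10, 24915221 to 24927484, GRCm38). It counted 4528 UMIs in BLM alveolar macrophages (784 CPM, 761 to 807) and 3 in naïve cells (0.456 CPM, 0.0941 to 1.33), a log2 ratio of 10.75 [9.20, 13.02]. A UMI was present in 72.9% of BLM cells and 0.481% of naïve cells, or 56.6% and 0.12% after thinning. In BLM B cells Arg1 was at 30.1 CPM and Spp1 at 87.2 CPM, and thinned to 1000 UMIs Arg1 was present in 3.21% of them and in 36.8% of BLM alveolar macrophages. The listed genes of arginine metabolism and alternative activation did not all follow it. Of 17, Arg1 included, 7 were higher (41.2%, beside 5.13% of all genes) and 2 lower (11.8%, beside 8.19%). Without the cells with dendritic markers 5 of 17 were higher and 2 lower, beside 4.52% and 8.52% of all genes. Ass1, an enzyme of arginine synthesis, was at 28.6 and 3.65 CPM, the chemokine gene Ccl24 at 21.1 and 5.63 CPM, Mrc1 (CD206) at 699 and 1128 CPM, and Flt1, a VEGF receptor, at 95.2 and 299.6 CPM. Retnla was at 64.6 CPM in BLM and 177 CPM in naïve cells, beside 23 and 49.3 CPM in B cells, but that direction reversed when A had to be at least 3 times C (log2 ratio 0.49) and when the highest 3% of doublet scores were left out (0.44).

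Genes that mark macrophages of fibrotic scars were mostly higher. Of 19 listed, 10 were higher in BLM cells (52.6%, beside 5.13% of all genes) and 1 was lower (5.26%, beside 8.19%), with a median log2 ratio of 1.04. Spp1, which encodes the matrix protein osteopontin (chromosome 5, 104435118 to 104441050, GRCm38), was at 5443 CPM in BLM cells and 235 CPM in naïve cells, a log2 ratio of 4.53 [4.46, 4.61]. It had a UMI in 92.4% of BLM cells and 60.3% of naïve cells. Mmp12, the macrophage elastase, was at 189 and 1.83 CPM, a log2 ratio of 6.69 [5.88, 7.65]. Pdpn (podoplanin), Mmp14 (a membrane-anchored collagenase), Syngr1, Sdc1 and Cd63 (a tetraspanin of late endosomes) had log2 ratios of 4.16, 5.27, 6.03 [4.46, 8.32], 5.56 [3.66, 8.63] and 2.54. Behind Syngr1 and Sdc1 were 3 and 2 naïve UMIs, and without the cells with dendritic markers the log2 ratio of Sdc1 was 6.62 [4.10, 11.94]. Trem2, a lipid-sensing receptor, was at 159.6 and 44.3 CPM. The lipid droplet coat gene Plin2 was lower, with a log2 ratio of −1.45 [−1.52, −1.37], and Gpnmb, Cd9 and Lgals3 stayed within 2-fold on the lower side.

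These transcripts were spread unevenly over the BLM cells. Without the cells with dendritic markers, Spp1 had a median of 28 UMIs per BLM cell and a highest value of 1701, and the 10% of cells with the most Spp1 held 50.8% of its UMIs. For Mmp12 the top 10% held 90.8% of the UMIs, 29.6% of the BLM cells had any, and the highest cell held 179. Fn1, which encodes fibronectin, was spread more evenly, with a median of 42 UMIs per BLM cell, a UMI in 98.4% of them and 26.6% of its UMIs in the top 10%. Arg1 had a median of 6 UMIs and 47.3% of its UMIs in the top 10%.

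As sums over cells, the genes lower and the genes higher in BLM cells separated most cells of the libraries. Fabp1, Krt19, Cidec and Cd36 together made up a median of 0.175% of UMIs in the 605 naïve cells without dendritic markers and 0% in the 385 BLM cells, 219 of which had no UMI of any of them. Only 12 BLM cells reached the 5th percentile of the naïve cells (0.065%). Spp1, Fn1 and Arg1 together made up a median of 0.758% of UMIs in BLM cells and 0.0405% in naïve cells, and 349 of the 385 BLM cells lay above the 95th percentile of the naïve cells (0.208%). These sums were put together after the ratios were seen, and the separation describes these 2 libraries.

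**Figure D3:**
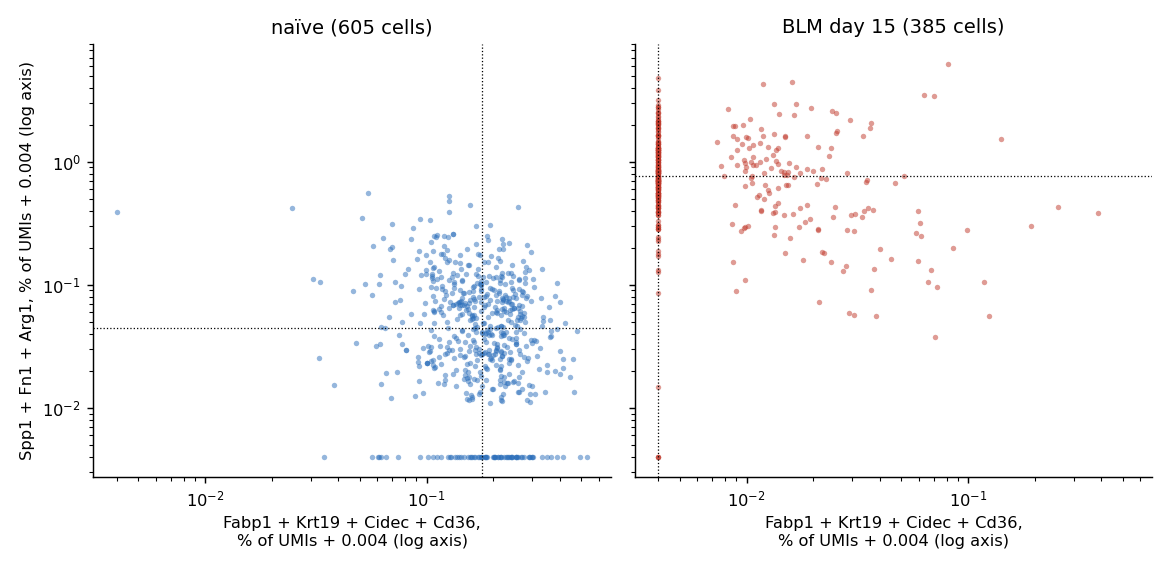
Each point is 1 cell without dendritic markers (605 naïve on the left, 385 BLM on the right), with the sum of Fabp1, Krt19, Cidec and Cd36 on the x axis and of Spp1, Fn1 and Arg1 on the y axis, in percent of UMIs (0.004 added, log axes). Dotted lines are the medians (0.175% and 0.0405% in naïve cells, 0% and 0.758% in BLM cells), and few BLM cells overlap the naïve cloud.

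Other genes high in BLM cells came from varied pathways. Ptgs1, which encodes cyclooxygenase 1, was at 286 CPM in BLM and 8.67 CPM in naïve cells, a log2 ratio of 5.04 [4.66, 5.45], and had a UMI in 79.8% and 6.89% of cells. Ldhb, a lactate dehydrogenase subunit, was at 66.5 and 1.52 CPM, and Fam20c, a kinase of secreted proteins, at 46 and 1.06 CPM. Tmeff1 and Spink2 had 2 UMIs each in naïve cells and 168 and 122 in BLM cells, log2 ratios of 6.58 [4.70, 9.64] and 6.12 [4.23, 9.18] (7.19 for Spink2 without the cells with dendritic markers). Slc36a2, an amino acid transporter, and Nnmt, which methylates nicotinamide, had 126 and 70 UMIs in BLM cells and 0 in naïve cells, at least 47.8-fold and 26.6-fold higher against a floor of 3 counts over the group.

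Genes of monocytes and recruited macrophages differed in both directions. Of 22 listed, 11 were higher (50%, beside 5.13% of all genes) and 7 lower (31.8%, beside 8.19%) in BLM cells. S100a4, Ccr2 (the chemokine receptor that draws monocytes into tissue) and Fn1 had log2 ratios of 3.09 [2.93, 3.26], 2.99 [2.80, 3.18] and 3.02 [2.96, 3.08]. Apoe, an apolipoprotein, was at 317 and 69.2 CPM. Ly6c2, a marker of classical monocytes, was at 7.62 CPM in BLM and 43 CPM in naïve cells, and Lyve1, Cd163 and Folr2, markers of tissue macrophages outside the air spaces, were at 1.21, 1.9 and 3.46 CPM in BLM cells and 13.2, 10.5 and 15.5 CPM in naïve cells. In naïve B cells Lyve1, Cd163 and Folr2 were at 3.08, 3.6 and 2.06 CPM. Thinned to 1000 UMIs, Ly6c2 was present in 3.49% of naïve alveolar macrophages and 3.38% of naïve B cells. In the BLM library these shares were 0.677% and 1.4%, so Ly6c2 did not stand above the B cells in BLM cells and barely did in naïve cells. When the highest 3% of doublet scores were left out, the direction of Folr2 reversed (log2 ratio 0.31 in place of −2.16) and Cd163 was within 2-fold (−0.47 in place of −2.46), and when A had to be at least 3 times C they were at −0.48 and −0.42. Mgl2 passed 2-fold (log2 ratio 1.44) but not without the cells with dendritic markers (−0.15 [−0.58, 0.28]).

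**Figure D4:**
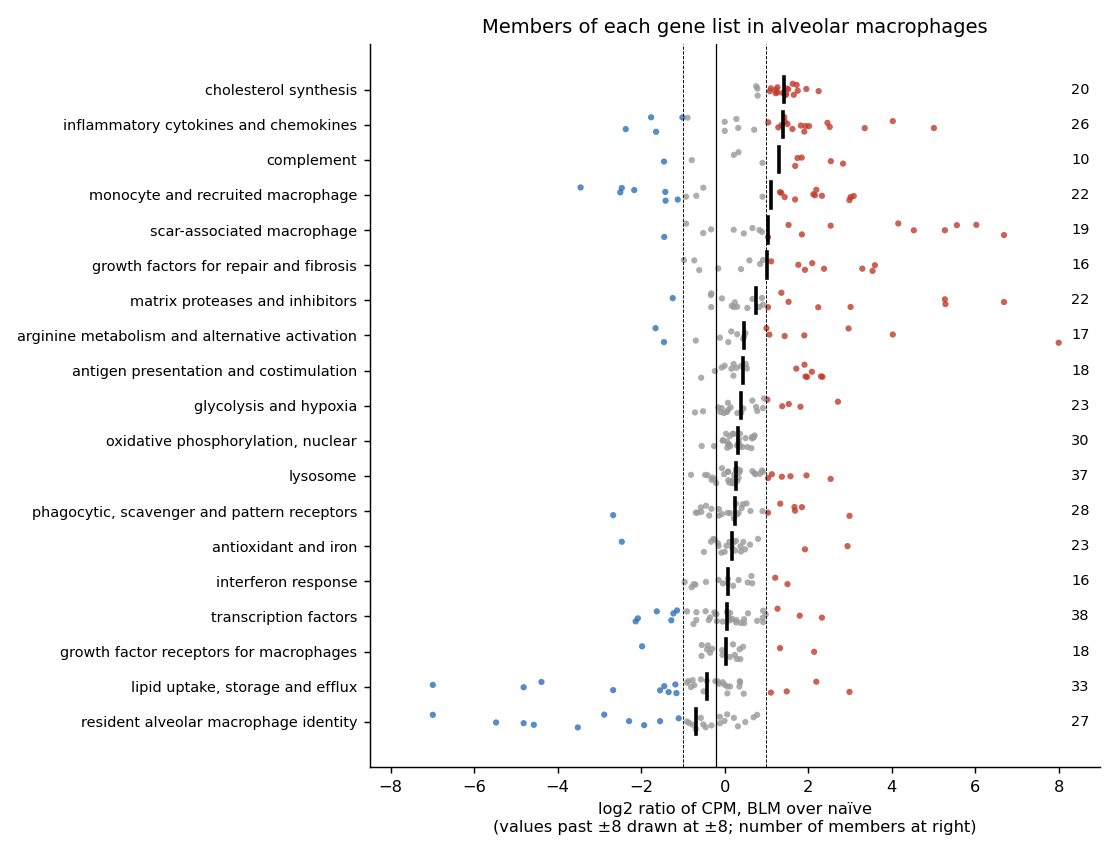
Each point is 1 gene with 50 or more UMIs and its log2 ratio of CPM, BLM over naïve (x axis), by gene list (rows, number of genes at right). Red and blue are 2-fold or more higher and lower, black bars are list medians (1.43 for cholesterol synthesis, −0.69 for resident identity), the dashed lines mark 2-fold and the thin solid line is the median of all genes (−0.20). Arg1, at 10.75, is drawn at the right edge.

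Lipid genes differed in both directions. Of 33 genes of uptake, storage and efflux, 9 were lower (27.3%, beside 8.19% of all genes) and 4 higher (12.1%, beside 5.13%) in BLM cells, with a median log2 ratio of −0.43. Cd36, a fatty acid and oxidised lipid receptor, was at 96.4 CPM in BLM cells and 613 CPM in naïve cells, a log2 ratio of −2.67 [−2.80, −2.54], whereas Msr1, the class A scavenger receptor, was at 299 and 37.6 CPM, a log2 ratio of 2.99 [2.80, 3.19]. Abcg1, Plin2, Pltp, Dgat2 (the last step of triglyceride synthesis) and Cpt1a (entry of fatty acids into mitochondria) lay between −1.54 and −1.15. The desaturase gene Scd2 was higher, with a log2 ratio of 1.49.

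Genes of cholesterol synthesis were higher as a list in BLM alveolar macrophages. Of 21 listed genes 20 had 50 or more UMIs. Of these 17 were higher in BLM cells (85%, beside 5.13% of all genes) and 0 lower, and all 20 had a log2 ratio above 0 (median 1.43). Idi1, which makes the isoprenoid building block of the pathway, was at 222 CPM in BLM cells (210.1 to 235) and 57.2 CPM in naïve cells (51.6 to 63.3), a log2 ratio of 1.96 [1.79, 2.13]. Sqle and Cyp51, which act on squalene and lanosterol, had log2 ratios of 1.75 and 1.73. Hmgcs1, Srebf2 and Dhcr7 did not reach 2-fold (0.76, 0.79 and 0.79). The count was 17 of 20 without the cells with dendritic markers too, beside 4.52% of all genes. For Idi1 the level in B cells was 79.3 CPM (BLM) and 69.9 CPM (naïve), so that the naïve alveolar macrophages lay below the naïve B cells.

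Because these genes were higher together, the 250 bases before their RefSeq start sites (GRCm38.p6) were searched on both strands. An entry was matched for 14 of the 21 genes, and for a gene with several start sites the first one listed was used. The motif CCAAT (or ATTGG), which binds the factor NF-Y, was present in 13 of the 14 (92.9%) and in 34.5% of all 27025 promoters. The motif TCACNCCAC, a form of the sterol regulatory element, was present in 1 of the 14 (Hmgcs1) and in 1.04% of all, and CACGTGAC in 3 of the 14 (Hsd17b7, Insig1 and Sc5d) and in 1.89% of all. A match describes letters only and shows no binding. The sequences of Idi1, Cyp51 and Hmgcs1 are shown because Idi1 and Cyp51 had the highest ratios among the matched genes and Hmgcs1 held the sterol element. They run 5′ to 3′ on the strand of the gene, with the last base just before the start site and the CCAAT and sterol motifs in capitals. They lie at chr13:8885356-8885605 (+), chr5:4104698-4104947 (−) and chr13:119690101-119690350 (+).
Idi1: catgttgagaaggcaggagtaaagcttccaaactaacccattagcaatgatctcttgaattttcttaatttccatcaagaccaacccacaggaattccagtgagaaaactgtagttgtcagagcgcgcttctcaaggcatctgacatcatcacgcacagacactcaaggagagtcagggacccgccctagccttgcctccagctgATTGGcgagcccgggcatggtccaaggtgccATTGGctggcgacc
Cyp51: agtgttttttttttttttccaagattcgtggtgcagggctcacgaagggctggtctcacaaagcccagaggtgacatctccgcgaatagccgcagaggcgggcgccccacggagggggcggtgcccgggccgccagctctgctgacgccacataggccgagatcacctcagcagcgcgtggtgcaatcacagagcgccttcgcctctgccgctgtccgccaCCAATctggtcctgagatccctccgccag
Hmgcs1: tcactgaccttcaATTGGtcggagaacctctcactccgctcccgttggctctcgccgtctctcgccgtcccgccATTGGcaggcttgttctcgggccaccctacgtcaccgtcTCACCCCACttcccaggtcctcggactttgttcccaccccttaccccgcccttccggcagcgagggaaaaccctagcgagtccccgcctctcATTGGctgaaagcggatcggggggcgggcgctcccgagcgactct
In Idi1 the motifs began 45 and 14 bases before the start, in Cyp51 29 bases before it, and in Hmgcs1 the CCAAT motifs began 237, 176 and 45 bases and the sterol element 137 bases before it.

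Inflammatory cytokines and chemokines were mostly higher in BLM cells, and their spread was wide. Of 26 with 50 or more UMIs, 16 were higher (61.5%, beside 5.13% of all genes) and 4 lower (15.4%, beside 8.19%), with a median log2 ratio of 1.39. Il1b, which encodes the precursor of interleukin 1β, was at 2228 CPM in BLM cells and 218 CPM in naïve cells, a log2 ratio of 3.36 [3.28, 3.44], while its antagonist Il1rn stayed within 2-fold at 399.9 and 319 CPM. Cxcl2, a neutrophil attractant, was at 1614 and 523 CPM. Ccl17, Il12b and Cxcl16 had log2 ratios of 4.03, 5.01 [3.42, 7.32] and 2.52, but much of their BLM level lay in the cells with dendritic markers, and without those cells it was 132 in place of 389 CPM, 6.55 in place of 14.7 CPM and 68.8 in place of 117 CPM. The log2 ratios were then 3.75, 3.79 [2.12, 6.13] and 2.65, so that these 3 genes stayed past 2-fold. Ccl5, Tnf, Ccl2 and Ccl7 were lower in BLM cells, with log2 ratios of −1.64, −1.01, −1.76 and −2.37. Thinned to 1000 UMIs, Ccl5 was present in 4.35% of naïve alveolar macrophages and 4.52% of naïve B cells, and in 1.75% and 1.38% in the BLM library. For Ccl2 the ratio was 0.69 when the highest 3% of doublet scores were left out and −0.14 when A had to be at least 3 times C, and for Ccl7 it was 0.60 without cells holding B, T or neutrophil markers. Without the cells with dendritic markers the ratio was −1.55 for Ccl7 and −0.91 for Tnf. Ccl6, the most abundant gene of the list, was level at 6924 CPM in BLM cells and 6901 CPM in naïve cells.

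Of 16 growth factors linked to repair and fibrosis, 8 were higher in BLM cells (50%, beside 5.13% of all genes) and 0 were lower. Areg, an epidermal growth factor receptor ligand, was at 168 CPM in BLM cells and 14.4 CPM in naïve cells, a log2 ratio of 3.54 [3.24, 3.86]. Inhba (a subunit of activin A), Pdgfa, Igf1 and Hgf had log2 ratios of 3.60, 3.30, 2.38 and 2.10, and the interleukin 6 family cytokine Osm was at 1451 and 427 CPM. Tgfb1 was at 37.4 and 41.5 CPM, a log2 ratio of −0.15 [−0.42, 0.11], an interval that includes 0. Il33, an alarmin cytokine, counted 11 UMIs in BLM cells and 3 in naïve cells, a log2 ratio of 2.06 [0.14, 4.54]. Its receptor Il1rl1 counted 24 and 36 UMIs, a log2 ratio of −0.40 [−1.21, 0.39], or −1.26 [−2.39, −0.23] without the cells with dendritic markers. Tff1, the trefoil factor that the study examined in regulatory T cells, had 0 UMIs in BLM and 1 in naïve alveolar macrophages.

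The matrix list held 8 higher (36.4%, beside 5.13% of all genes) and 1 lower (4.55%, beside 8.19%) genes of 22. Besides Mmp12, Mmp14 and Fn1, Timp1 (an inhibitor of metalloproteinases) had 103 UMIs in BLM cells and 3 in naïve cells, a log2 ratio of 5.29 [3.70, 7.59], and Adam8 and Timp2 had log2 ratios of 2.24 and 1.53. Cst3, cystatin C, passed 2-fold (log2 ratio 1.36) but not without the cells with dendritic markers (0.25 [0.21, 0.30]). In the overlapping lysosome list 6 of 37 genes were higher (16.2%, beside 5.13% of all genes) and 0 lower. Those higher included Cd63, the phosphatase gene Acp5 (292 and 75.1 CPM), Lgmn and Psap. Psap, which encodes the precursor of the saposins, was at 11540.5 CPM in BLM cells and 5269.7 CPM in naïve cells.

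Transcripts of several MHC class II genes were higher in BLM cells, and those of the class I genes H2-D1 and B2m were level. Not all class II genes differed alike. After thinning to 3000 UMIs, H2-DMa was present in 54.3% of BLM and 51.2% of naïve cells. Of 18 listed genes 7 were higher (38.9%, beside 5.13% of all genes) and 0 lower. H2-Ab1 was at 2260.5 CPM in BLM cells and 531 CPM in naïve cells, a log2 ratio of 2.09 [2.04, 2.14], and Cd74 at 3076 and 621 CPM, a log2 ratio of 2.31 [2.26, 2.36]. The cells with dendritic markers were rich in these transcripts, and without them H2-Ab1 was at 1322 and 337 CPM, a log2 ratio of 1.97 [1.90, 2.04], and Cd74 had a log2 ratio of 2.41 [2.34, 2.47]. Ciita, the master regulator of class II, had a log2 ratio of 1.94. The costimulatory gene Cd86 was at 100.4 CPM in BLM cells and 19.8 CPM in naïve cells (log2 ratio 2.34 [2.07, 2.63]), or 59.9 and 14.4 CPM without the cells with dendritic markers, all below the level in B cells (199.8 and 156 CPM), which also use it. Cd80 was at 33.6 and 39.5 CPM, a log2 ratio of −0.24 [−0.51, 0.04]. H2-D1 and B2m of class I had log2 ratios of −0.07 and 0.21.

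Of 10 complement genes 5 were higher (50%, beside 5.13% of all genes) and 1 was lower (10%, near the 8.19% of all genes). However, 3 of the 5 were C1q genes, whose sum the rule used. Of the other 7 genes 2 were higher and 1 lower, beside the same shares of all genes. Among those higher, besides the C1q genes, was C3ar1, the receptor for C3a, with a log2 ratio of 1.85. C5ar1, the receptor for C5a, was at 175 and 478 CPM, a log2 ratio of −1.45 [−1.56, −1.35]. C1qb in B cells was at 20.6 CPM (BLM) and 4.63 CPM (naïve), beside 199.8 and 28 CPM in the alveolar macrophages. Of 28 phagocytic and pattern receptors, 6 were higher (21.4%, beside 5.13% of all genes) and 1 was lower (3.57%, beside 8.19%). Those higher were led by Msr1, Trem2, Cd14 and Fcgr2b, and the lower gene was Cd36. Mertk, the receptor for the uptake of dying cells, was at 152 and 239 CPM, within 2-fold.

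Of 38 transcription factors 29 stayed within 2-fold (76.3%, beside 86.7% of all genes), 3 were higher (7.89%, beside 5.13%) and 6 lower (15.8%, beside 8.19%). Among those higher were Id2, an inhibitor of other factors, at 495 and 142 CPM and Hif1a, the hypoxia factor, at 124 and 51.6 CPM. Jun, Egr1, Klf2, Cebpd, Fos and Cebpa were lower, with log2 ratios from −2.13 to −1.14, whereas Junb, an immediate-early gene like Jun and Fos, was at 703 CPM in BLM and 374 CPM in naïve cells. Jun, Fos and Egr1 also respond to cell isolation, and with 1 library a group preparation and treatment cannot be told apart.

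In the glycolysis and hypoxia list 5 of 23 genes were higher (21.7%, beside 5.13% of all genes) and 0 lower, among them Hk2 (hexokinase 2) at 133 and 37.7 CPM and Slc2a1 (the glucose transporter GLUT1) and the glycolytic enzyme gene Pgam1 with log2 ratios of 1.54 and 1.38. Ndrg1 was at 29.9 CPM in BLM and 4.56 CPM in naïve cells, or 19.6 and 3.48 CPM without the cells with dendritic markers. Of 30 nuclear genes of oxidative phosphorylation 0 were higher and 0 lower (median 0.33), beside 5.13% and 8.19% of all genes. In the antioxidant and iron list 2 of 23 were higher (8.7%, beside 5.13% of all genes) and 1 was lower (4.35%, beside 8.19%). Those higher were Slc7a11, the cystine importer, at 93.7 and 12.2 CPM, and Slc11a1. The lower gene was Cd163, which as given above did not stay past 2-fold. Slc11a1 had a log2 ratio of 1.92, or 0.88 with A at 0.05% of UMIs or more. The interferon list held 2 higher genes of 16 (12.5%, beside 5.13% of all genes), Cxcl10 and Oas1a, and 0 lower. Without the cells with dendritic markers it held 3 and 1 of 15, beside 4.52% and 8.52% of all genes. The canonical Isg15 was at 27 and 18.4 CPM with all chosen cells. Among growth factor and cytokine receptors, Csf1r, the receptor for M-CSF, was higher (331 and 132 CPM) and Csf3r lower, while the GM-CSF receptor genes Csf2rb and Csf2rb2 stayed within 2-fold (log2 ratios 0.38 and 0.36). Il1r2 also passed 2-fold (log2 ratio 2.14), but not without the cells with dendritic markers (0.48 [0.18, 0.78]). Of 14 cell cycle genes, some of which had been used to leave out dividing cells, 0 were higher and 1 was lower (7.14%, beside 8.19% of all genes). It was Tk1, with a log2 ratio of −1.16, or −0.85 without cells holding B, T or neutrophil markers.

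Within the BLM library the alveolar macrophages differed among themselves along Marco, which the rule had used. Marco was present in 57.5% of naïve and 17.9% of BLM cells, and among BLM cells without dendritic markers the 10% with the most Marco held 95.7% of its UMIs. Those cells were therefore split into 308 with no Marco UMI, 36 with 1 or 2 and 41 with 3 or more, a split made after the values were seen. Their median depths were 12263.5, 14973.5 and 18388 UMIs.

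Between BLM cells with 3 or more Marco UMIs and those with none, resident genes differed in both directions. Chil3 was at 17065 CPM in them and 9419 CPM in BLM cells without Marco, Ctsk (a protease) at 2127 and 669 CPM, and Hmox1, the enzyme that breaks down haem, at 2329 CPM (2223 to 2438) and 212 CPM (197 to 227). Krt19 was at 94.4 CPM (74.2 to 119) and 4.89 CPM (2.94 to 7.64), and Krt79, Cidec, Fabp1 and Cd36 had log2 ratios (3 or more over none) of 3.22, 2.17, 2.31 and 1.75. Ear2, a ribonuclease like Ear1, lay the other way at −0.98 [−1.11, −0.86], and Abcg1, Mrc1 and Lpl were at −0.03, 0.08 and 0.15. Ccr2 was at 44.7 CPM in cells with 3 or more Marco UMIs and 381 CPM in those with none, S100a4 at 76.6 and 524 CPM, Cd74 at 409.7 and 2449 CPM and Fn1 at 1677 and 4028 CPM.

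In naïve cells the same split, into 256, 143 and 206 cells, gave smaller differences for these genes. Chil3 was at 11255 CPM with 3 or more Marco UMIs and 11195 CPM with none, Hmox1 at 334 and 344 CPM, Ccr2 at 29 and 38.3 CPM, and Krt19 at 503 and 436 CPM. Other genes did differ in naïve cells. Apoe had a log2 ratio (3 or more over none) of 1.18 [0.80, 1.58] and C1qb of 0.98 [0.40, 1.57], the opposite sign to the same split of BLM cells (−0.40 [−0.61, −0.20] and −0.90 [−1.22, −0.60]), and Msr1 was at 0.69 [0.25, 1.15] and Fn1 at −0.51 [−0.64, −0.38]. The BLM cells with much Marco did not reach naïve levels of the resident genes, with Krt19 at 94.4 beside 503 CPM and Fabp1 at 8.93 beside 447 CPM, and they held Arg1 at 346 beside 1.22 CPM and Spp1 at 8610.4 beside 302 CPM.

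**Figure D5:**
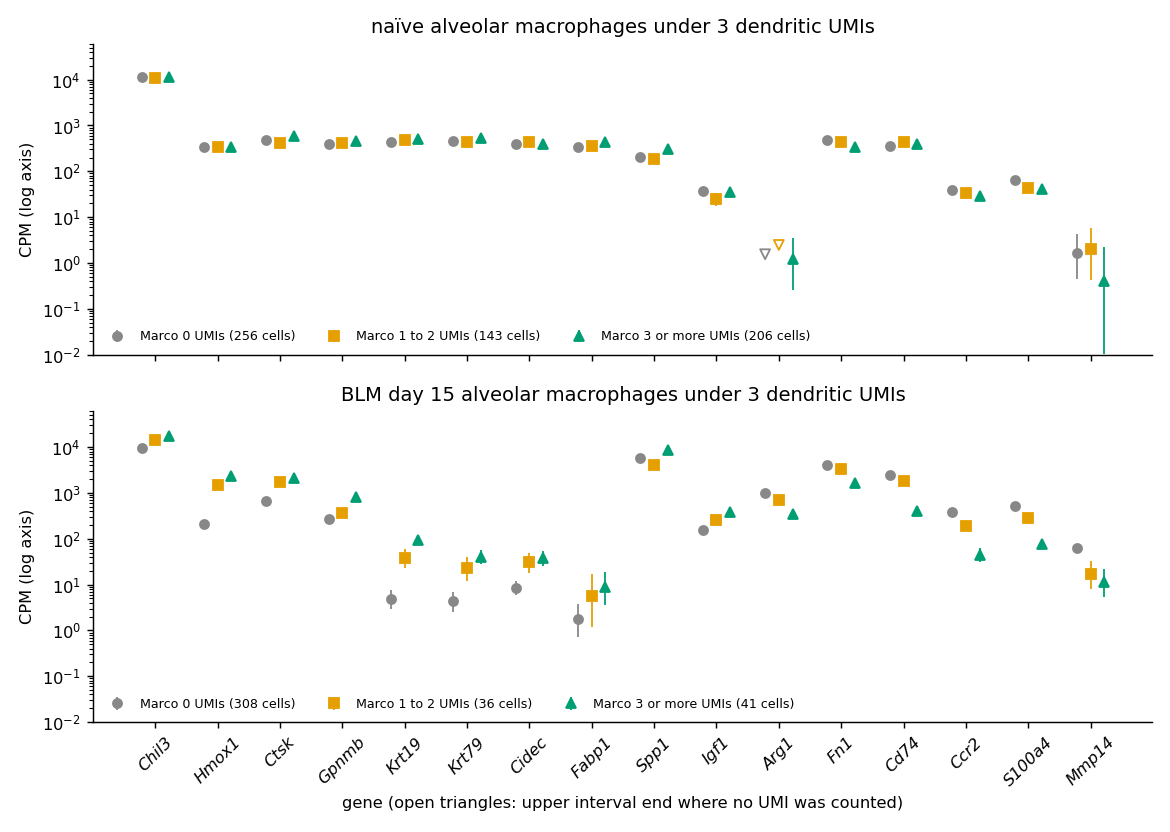
Levels of 16 genes (CPM, log axis, with 95% counting intervals) in naïve (top) and BLM (bottom) cells without dendritic markers, split by their Marco UMIs into 0, 1 to 2 and 3 or more. In BLM cells Hmox1 runs from 212 to 2329 CPM and Ccr2 from 381 to 44.7 CPM, while in naïve cells the 3 groups lie close together for these genes.

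The cells were also ordered by their share of A, which chose them and contains Marco, so that these values are a description and not independent of the split by Marco. With BLM cells without dendritic markers cut into 4 equal parts, in the lowest (97 cells) Ccr2 was at 528 CPM, Apoe at 745 CPM and Mmp14 at 87 CPM, and in the highest (96 cells) they were at 118, 96.7 and 25.7 CPM. Arg1, Fn1 and Spp1 were high in both, at 1182, 4402 and 5403 CPM in the lowest and 721, 2761 and 7714 CPM in the highest. Krt19 was at 0.888 CPM in the lowest and 43.9 CPM in the highest BLM part, against 385 and 534 CPM in the same parts of naïve cells, so that the BLM parts stayed well under the naïve ones. The median depth ran from 10919 UMIs in the lowest to 14522 UMIs in the highest BLM part.

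C1q macrophages of the same libraries were chosen by C at 0.1% of UMIs or more and at or above A. There were 417 BLM and 82 naïve ones. Between BLM and naïve cells, the alveolar and the C1q macrophages differed alike in some genes and unlike in others. Spp1 was at 6276 CPM in BLM and 11.5 CPM in naïve C1q macrophages, and Arg1 at 1014 and 7.7 CPM. The BLM levels were near those of BLM alveolar macrophages (5443 and 784 CPM). Ccr2 was at 786 and 804 CPM in C1q macrophages, a log2 ratio of −0.03 [−0.18, 0.12], beside 2.99 in alveolar macrophages. Of the cholesterol genes, 2 of 17 were 2-fold higher in BLM C1q macrophages (median 0.27). In alveolar macrophages 17 of 20 were, beside 5.13% of all genes. The share over all genes was not computed for C1q macrophages, so the 2 counts cannot be weighed against each other. The differences were not tested, and the naïve C1q macrophages held only 519788 UMIs.

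Transcripts of the MHC class II gene H2-Ab1 differed in opposite directions in C1q and alveolar macrophages. H2-Ab1 was at 6318 CPM in naïve and 2806 CPM in BLM C1q macrophages, while in alveolar macrophages without dendritic markers it was at 337 CPM in naïve and 1322 CPM in BLM cells. Retnla, the marker of alternative activation that was abundant in naïve C1q macrophages at 11081 CPM, was at 2486 CPM in BLM ones.

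Markers of other cells were mostly low. Of the B cell list 4 of 5 genes with 50 or more UMIs were lower in BLM alveolar macrophages (80%, beside 8.19% of all genes). They were led by Igkc at 70.6 and 323 CPM. Of the T and NK cell list 3 of 5 were lower (60%, beside the same 8.19%), namely Nkg7, Gzma and Trbc2. The last was at −1.14, or at −0.94 with the median of all genes set to 0. The lists summed to 118 and 36 CPM in BLM and 458 and 98.2 CPM in naïve cells. The neutrophil list summed to 246 and 189 CPM, and its main gene S100a8 was at 115 CPM in BLM alveolar macrophages, below its level in BLM B cells (215 CPM). Its log2 ratio was 1.01, or 0.25 without cells holding B, T or neutrophil markers. Of the dendritic list 4 of 7 were higher (57.1%, beside 5.13% of all genes), namely Xcr1, Flt3, Clec9a and Zbtb46. Of the 2 that still had 50 or more UMIs without the cells chosen by that list 0 were higher. Epcam, the 1 epithelial gene with 50 or more UMIs, was at 24.4 and 106 CPM, and Sftpc was among the epithelial markers under that limit. The stroma and endothelium list held 1 higher (Col1a1) and 1 lower gene (Pecam1) of 6 (16.7% each, beside 5.13% and 8.19% of all genes). Without the cells with dendritic markers it held 2 higher and 1 lower of 5, beside 4.52% and 8.52% of all genes. Col1a1 had a log2 ratio of 1.91 that was 0.36 with A at 0.05% of UMIs or more. The erythroid and the eosinophil, basophil and mast cell lists had 0 genes with 50 or more UMIs. In all, 178 BLM and 164 naïve cells held 3 or more UMIs of B cell, T cell or neutrophil markers. The part of these transcripts in the results was not tested.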

How the data were processed

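Living CD45+ cells of naïve and BLM-injured lung were profiled with the BD Rhapsody whole transcriptome kit, with cells of 3 mice pooled into 1 library per group. The authors deposited UMI counts per cell and gene, made per the file headers with the BD Rhapsody WTA Analysis Pipeline 1.8 on GRCm38 with the GENCODE vM19 annotation and recursive substitution error correction of UMIs. The study's own quality control and clustering in Seurat were not used here, and no cell annotation was analysed. The BLM library held 4714 cell indices with 22490782 UMIs and the naïve library 4062 with 18019004 UMIs.

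The filter on cells required 200 genes or more and no more than 15% mitochondrial UMIs, and alveolar macrophages were chosen by the marker rule given above. Counts of the chosen cells were summed per library and given as CPM with exact Poisson 95% intervals, and ratios with exact conditional (Clopper-Pearson) intervals, which cover counting error only. With 1 library per group no test was run and no p-value is given. Genes with 50 or more UMIs over both libraries were ranked, 2-fold was the threshold for calling a gene higher or lower, and a count of 0 was set to a floor of 3 counts over the group. Shares of cells with a UMI were thinned to 3000 UMIs per cell, or to 1000 beside B cells (Cd79a, Cd79b and Ms4a1 at 0.2% of UMIs or more, A plus C under 0.1%).

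Named genes were those of the rule, Cd80, Cd86, Tgfb1, Il33, Il1rl1 and Tff1, the 12 highest and 12 lowest genes by the interval end nearer 0 with a UMI in 10% or more of the chosen cells of the higher side, the 10 most abundant in each library, and up to 4 members each way of every gene list. Other members of the lists that are named were chosen after their values were seen, and some members are not reported here. The members and lists were chosen with earlier results of these data known. Doublets were not removed. Scrublet was run as an alternative, which left out 17 BLM and 29 naïve chosen cells. Other alternatives changed the thresholds of the rule, the scaling, the floor on UMIs and the cells kept. Leaving out cells with dendritic markers was added after seeing the data. The calculations were checked on simulated counts and run with Python 3.11.15, numpy 2.4.6, scipy 1.17.1 and pandas 2.3.3. Gene coordinates are from GENCODE vM21 (GRCm38) and promoter sequences from RefSeq (GRCm38.p6).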

Additional observations from a re-analysis of the deposited data

Results flagged for a closer look

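For 3 genes given here the direction of the ratio was opposite to that in C1q macrophages of the same libraries. They are not a full list of such genes. Of the resident identity list, 10 of 21 genes were higher and 2 lower in BLM C1q macrophages. Shares over all genes were not computed for C1q macrophages, so that count has no background here. In alveolar macrophages without dendritic markers 0 of 27 were higher and 9 lower, beside 4.52% and 8.52% of all genes. The list holds all 7 genes of A, which were used in choosing both groups of cells. With cells holding dendritic markers left out, the log2 ratio of BLM over naïve in alveolar macrophages was 1.97 for H2-Ab1, 1.79 for H2-Eb1 and 1.09 for S100a8. In C1q macrophages it was −1.17 for H2-Ab1, −1.59 for H2-Eb1 and −1.18 for S100a8. Each cell type had 1 library per group, so the difference was not tested. For S100a8, a neutrophil gene, the level in BLM alveolar macrophages was 115 CPM beside 215 CPM in BLM B cells, which should lack it. With all chosen cells the S100a8 ratio fell under 2-fold in 9 of 12 alternative settings, to 0.25 when cells with B, T or neutrophil markers were left out.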

How the results depend on the processing

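With 1 library per group, mouse, library and treatment cannot be told apart, and depth limits genes with few UMIs. No paired analysis was possible because each group has 1 library and the labels give no replicate numbers. For 129 genes past 2-fold with UMIs in both libraries (those of the rule for named genes and those named after their values were seen), 1551 ratios were recomputed over 13 settings (ratios with a count of 0 have no value), 8 of which reversed and 52 of which, those reversed included, fell under 2-fold, in 23 genes, and the cause was not tested. The 8 were Retnla at 0.49 when A had to be at least 3 times C and at 0.44 without the highest 3% of Scrublet scores, Folr2 at 0.31 and Ccl2 at 0.69 without those scores, Ccl7 at 0.60 without cells holding B, T or neutrophil markers, and Mgl2 at −0.15, Xcr1 at −0.13 and Zbtb46 at −0.72 without cells holding dendritic markers, of which Xcr1 and Zbtb46 belong to the list those cells were chosen by. Leaving out cells with B, T or neutrophil markers kept 268 of the 446 BLM cells. A floor of 200 UMIs, by which fewer genes are ranked, left 253 genes higher and 349 lower, and asking that the interval end nearer 0 pass 2-fold left 323 genes lower. Setting the median of ranked genes to 0 turned the share of higher genes among those past 2-fold from 38.5% to 54.5%, and left Tnf, Trbc2, Tk1, Perp, Dgat2, Cpt1a and Cebpa between −0.81 and −0.98.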
